A study of Mus musculus with 18 samples.

Results

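Imprinted genes are transcribed from only the paternal or only the maternal copy, and a fixed list of 40 of them was followed here through RNA-seq of mice that lack repeat B of *Xist*. The members were picked by symbol, with earlier results of these data known. All 40 were found in the liver table and 33 in the table of primary mouse embryonic fibroblasts (MEFs). The list holds 21 genes that are usually expressed from the paternal copy and 19 that are usually expressed from the maternal copy, in some cases only in particular tissues, among 52091 gene identifiers in the 2 tables together. *Xist* is the RNA that coats and silences an X chromosome in female cells, and repeat B is a stretch of it that recruits Polycomb complexes. No member lies on the X chromosome.

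The study compared mice with a CRISPR/Cas9 deletion of *Xist* repeat B, named RepB-/-, with wild-type (WT) mice, and 3 RepB-/- and 3 WT libraries of poly(A) RNA were read in MEFs and 3 and 3 in liver. The labels give the letters B and W, read here as RepB-/- and WT. They name tail as the tissue of the MEF lines and give no age, strain, litter or sex, so that age cannot be compared, and they do not say whether libraries came from separate animals or cultures, so p-values measure the spread between these libraries, which may be technical. The study uses RepB-/- for female mice and also examined hemizygous males, which it names RepB-/Y. The mice bought for it were females of the ICR stock.

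Imprinting is laid down in the germ line, where a control region at each cluster of imprinted genes is methylated in either the egg or the sperm. After fertilization ZFP57 and TRIM28 hold that methylation in place, and DNMT1 with UHRF1 copies it at each cell division. Many imprinted genes set growth before and shortly after birth: as a broad rule, paternally expressed genes such as *Igf2* favour growth and maternally expressed genes such as *H19*, *Igf2r*, *Cdkn1c* and *Grb10* restrain it. In liver, *H19* and *Igf2* are abundant in the fetus and are shut down after birth, and *Peg3*, *Plagl1*, *Cdkn1c*, *Mest*, *Dlk1* and *Grb10* belong to the same group of growth genes that decline as the animal ages.

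Depth ranged from 11540344 to 20587556 counts per MEF library, with the lowest value in WT replicate 1, and from 37682201 to 51542709 counts per liver library. Hepatocyte genes (*Alb* and 5 others) summed to between 115251 and 197158 CPM (counts scaled to library size with TMM factors) in liver and to at most 1.44 CPM in MEFs, where fibroblast genes (*Col1a1*, *Vim* and 4 others) summed to between 12776 and 21012 CPM. *Xist* itself was not analysed in MEFs. In liver it had between 14494 and 26345 counts in 5 libraries but 4 counts in RepB-/- replicate 2, which also had 438 to 1669 counts of each of *Uty*, *Kdm5d*, *Ddx3y* and *Eif2s3y*, genes of the Y chromosome that had at most 1 count in any other liver. That library goes against RepB-/- as the study's name for female mice. Liver results are given with it, as labelled, and some of them also without it.

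In liver the widest differences among imprinted genes lay between replicate numbers and not between genotypes. *H19*, a maternally expressed non-coding RNA, had 3880 CPM in RepB-/- replicate 1 and 3541 CPM in WT replicate 1, but 1.87 and 12.5 CPM in the other RepB-/- livers and 0.878 and 0.465 CPM in the other WT livers. *Igf2*, its paternally expressed neighbour and a fetal growth factor, had 1480 and 763 CPM in the libraries numbered 1 of RepB-/- and WT, and between 0.803 and 1.49 CPM in the other 4. Both genes thus separated the 2 libraries numbered 1, 1 of each genotype, from all others. The labels give no stage or age for any liver, so nothing in them says how the libraries numbered 1 differ.

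The comparison of the libraries numbered 1 with those numbered 2 and 3 was singled out with earlier results of these data known, so it is given as a description and carries no test. A gene was called apart where both libraries numbered 1 lay outside the range of the other 4 and the mean log2 CPM, with a prior count of 2, differed by at least 1. Of 16080 genes in the liver analysis, 12.5% were higher and 8.15% lower in this sense. Of the 34 imprinted genes that passed the filter on low counts, 12 were higher (35.3%) and 1 was lower (2.94%). Their median difference was 0.70 on the log2 scale against 0.012 over all genes. The 12 were the same genes when RepB-/- replicate 2 was left out, and so was the gene that was lower. Of the 16 paternally expressed members in the filter 7 were higher and 1 lower, and of the 18 maternally expressed members 5 were higher.

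**Figure D1:**
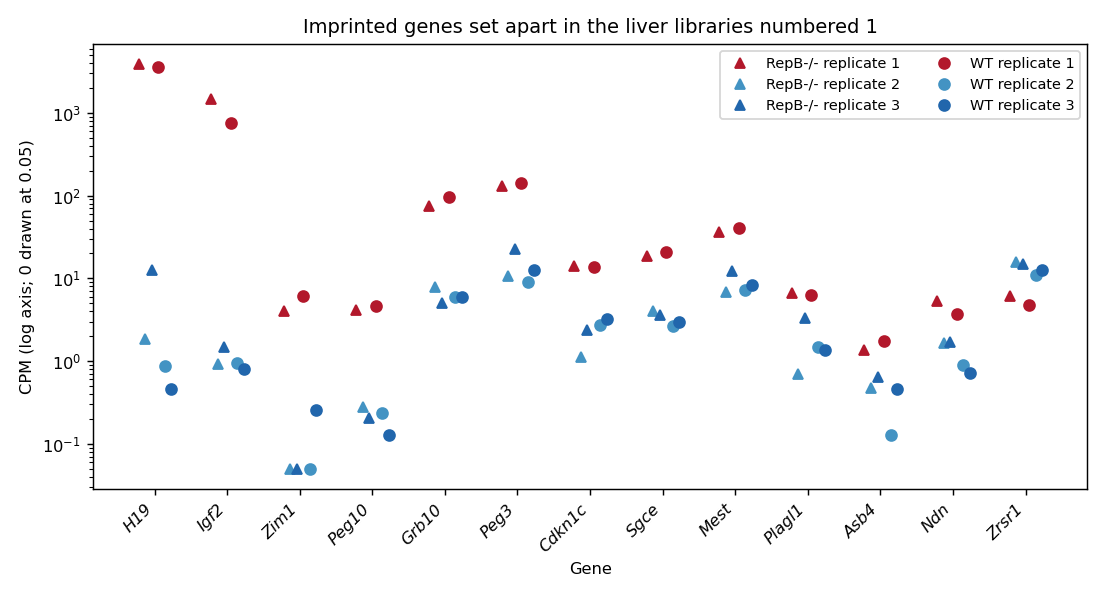
CPM (log axis, with 0 drawn at 0.05) in each of the 6 liver libraries for the 13 imprinted genes that were apart in the libraries numbered 1; triangles are RepB-/-, circles are WT, and red marks the libraries numbered 1. The red symbols lie above all blue symbols for 12 genes, by far most for *H19* and *Igf2*, and below them for *Zrsr1*.

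*H19* and *Igf2* lie side by side on the minus strand of chromosome 7 (GRCm38, chr7:142575529-142578143 and chr7:142650766-142666816) and share the enhancers behind *H19*. The difference between the libraries numbered 1 and the others was 10.98 for *H19* and 9.97 for *Igf2* on the log2 scale. In counts, *H19* fell from 196483 and 158730 in the libraries numbered 1 to between 22 and 427 in the others, and *Igf2* from 74952 and 34215 to between 37 and 51. There were 2.62 *H19* counts for each *Igf2* count in RepB-/- replicate 1 and 4.64 in WT replicate 1. Per length, as TPM (transcripts scaled to length and to the library's total), *H19* and *Igf2* were the highest of the 40 genes in the mean over the 6 livers (1061 and 454 TPM), a mean that the libraries numbered 1 carry.

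Each transcript also contains a microRNA precursor. Mature microRNAs are too short for these libraries and were not measured, but their sequences show what the transcripts encode. RefSeq lists 43 mature microRNAs on the transcribed strand inside 7 members: 26 in *Mirg*, 6 in *Rian*, 3 in *Meg3* and 2 each in *H19*, *Igf2*, *Mest* and *Usp29*. Those of *H19*, *Igf2* and *Mest*, the hosts that were called apart in the libraries numbered 1, are shown 5′ to 3′ with the seed (bases 2 to 8) in capitals, at GRCm38 positions. No seed is shared among these 6.
miR-675-5p (in H19, chr7:142577112-142577133, - strand): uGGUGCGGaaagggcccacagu
miR-675-3p (in H19, chr7:142577078-142577099, - strand): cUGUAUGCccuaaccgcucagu
miR-483-5p (in Igf2, chr7:142654968-142654989, - strand): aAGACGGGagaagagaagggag
miR-483-3p (in Igf2, chr7:142654932-142654952, - strand): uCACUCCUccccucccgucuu
miR-335-5p (in Mest, chr6:30741314-30741336, + strand): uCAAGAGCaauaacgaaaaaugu
miR-335-3p (in Mest, chr6:30741354-30741375, + strand): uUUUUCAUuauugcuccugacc

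Receptor and signalling members of the growth group followed in part. *Grb10*, an adaptor that damps insulin and IGF receptor signalling, had 74.2 and 95.6 CPM in RepB-/- and WT replicate 1 and 5.07 to 7.94 CPM in the others, a log2 difference of 3.76. *Igf2r*, which clears IGF2 from the cell surface, lay outside the range too, with 60.5 and 55.4 CPM against 37.7 to 43.3 CPM, but its log2 difference was 0.51 and it was not called apart. *Cdkn1c*, an inhibitor of cyclin-dependent kinases, had 14.1 and 13.6 CPM against 1.11 to 3.19 CPM, a log2 difference of 2.63. *Airn*, the paternal antisense RNA at *Igf2r*, overlapped between the groups at 0.434 to 1.31 CPM over all 6 libraries.

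*Peg3*, *Zim1* and *Plagl1*, which encode zinc finger proteins, were high in the same libraries, while *Mkrn3*, a zinc finger gene too, overlapped with a log2 difference of 0.44. *Peg3*, a paternally expressed DNA-binding protein, had 131 CPM in RepB-/- and 143 CPM in WT replicate 1 against 9.02 to 22.4 CPM, a log2 difference of 3.40. *Zim1*, its maternally expressed neighbour, had 202 and 275 counts in the libraries numbered 1, 12 counts in WT replicate 3 and 0 counts in the other 3 libraries. In RepB-/-, where the libraries numbered 2 and 3 had no count, *Zim1* was at least 54.2-fold higher in replicate 1, against a floor of 3 counts per library. *Plagl1*, a paternally expressed regulator of other imprinted genes, had 6.60 and 6.29 CPM against 0.695 to 3.35 CPM, a log2 difference of 2.08.

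*Usp29*, which is transcribed away from *Peg3* from an adjacent start, had 93 and 77 counts in the libraries numbered 1 of RepB-/- and WT and 0 to 8 counts in the others. *Dlk1*, a paternally expressed membrane protein of immature cells that resembles Notch ligands, had 245 and 51 counts in the libraries numbered 1, 2 counts in WT replicate 3 and 0 counts in the other 3. Both genes were highest in the libraries numbered 1, and neither could pass the filter, which asks for 3 libraries at about 0.223 CPM. In RepB-/- the *Dlk1* level in replicate 1 was at least 65.8-fold higher than in the libraries with no count.

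Members of the *Peg10* cluster and *Ndn* were also high in the libraries numbered 1. *Peg10*, a gene derived from a retrotransposon that the placenta needs, had 4.09 and 4.68 CPM against 0.127 to 0.278 CPM, a log2 difference of 4.15. *Sgce*, encoding epsilon-sarcoglycan and transcribed from the opposite strand next to *Peg10*, had 18.4 and 20.6 CPM against 2.63 to 4.01 CPM, a log2 difference of 2.56. *Asb4*, a maternally expressed member of the same cluster, had 1.36 and 1.74 CPM against 0.129 to 0.642 CPM, while *Ppp1r9a*, which lies between *Peg10* and *Asb4*, overlapped at 1.82 to 5.16 CPM. *Ndn*, a growth suppressor of the Prader-Willi region, had 5.37 and 3.75 CPM against 0.718 to 1.72 CPM. The other paternally expressed members of that region did not follow it: *Snrpn* was below the range of the other libraries with a log2 difference of -0.33, *Mkrn3* overlapped and *Magel2* had no count. Among the members called higher, *Ndn* had the smallest log2 difference, at 1.90, where the limit was 1. *Kcnq1*, at 0.64, was the member nearest to that limit among those above the range but not apart.

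*Mest*, a paternally expressed enzyme of the hydrolase fold, had 36.2 and 40.1 CPM in the libraries numbered 1 and 6.79 to 12.1 CPM in the others, a log2 difference of 2.18. *Copg2*, whose 3′ end overlaps that of *Mest* on the opposite strand (GRCm38, chr6:30723547-30748465 for *Mest* and chr6:30747554-30896794 for *Copg2*), differed by -0.06 and overlapped. *Zrsr1*, a paternally expressed splicing factor inside *Commd1* on the opposite strand, was the 1 member that was lower: it had 6.04 and 4.75 CPM against 10.9 to 15.7 CPM, a log2 difference of -1.31. *Commd1* itself overlapped, at 20.9 to 22.2 CPM in the libraries numbered 1 and 12.7 to 20.9 CPM in the others.

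The other 21 members in the filter were not apart, with log2 differences from -0.83 to 1.73. Among them *Igf2r* and *Kcnq1* were above the range of the other libraries, and *Snrpn* and *Impact* below it. *Gnas*, *Dcn* and *Slc38a4*, the latter an amino acid transporter of hepatocytes, were among the most abundant members in liver at 264, 169 and 220 TPM in the mean, and their log2 differences were 0.06, 0.14 and -0.42. *Phlda2* and *Nap1l5* did not pass the filter, at no more than 0.237 CPM in any library. *Magel2* and *Rasgrf1* had no count in any liver library, which allows up to 3 counts per library. 

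To show the sequence next to the starts of members that were high together, the 250 bases before a start were read for the members in the RefSeq table of GRCm38.p6, which covers 31 members with 49 starts. The hexamer TGCCGC, whose methylated form ZFP57 binds, was searched on both strands. It was found in 14.3% of the 49 windows and in 8.68% of 32851 windows of all genes, and the median number of CpG dinucleotides was 10 against 6. Members with several starts count more than once, and of the matching windows 2 belong to *Mest* and are shifted by 3 bases. Of the 12 genes that were high in the libraries numbered 1, the hexamer stood in windows of *Mest*, *Plagl1* and *Zim1*, and not in those of *Igf2*, *Peg3*, *Grb10*, *Ndn* and *Asb4*. *H19*, *Cdkn1c*, *Peg10* and *Sgce* were not searched. A match is only a description of letters. For these 3 genes a window with a match is shown 5′ to 3′ in the direction of transcription, with the hexamer in capitals, read as GCGGCA where it lies on the opposite strand.
Mest (chr6:30737800-30738049, + strand): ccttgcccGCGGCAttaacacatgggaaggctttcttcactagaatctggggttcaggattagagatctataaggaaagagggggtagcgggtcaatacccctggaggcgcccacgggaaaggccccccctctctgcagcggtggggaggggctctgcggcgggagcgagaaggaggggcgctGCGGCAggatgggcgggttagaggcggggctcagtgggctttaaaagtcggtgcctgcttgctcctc
Plagl1 (chr10:13090582-13090831, + strand): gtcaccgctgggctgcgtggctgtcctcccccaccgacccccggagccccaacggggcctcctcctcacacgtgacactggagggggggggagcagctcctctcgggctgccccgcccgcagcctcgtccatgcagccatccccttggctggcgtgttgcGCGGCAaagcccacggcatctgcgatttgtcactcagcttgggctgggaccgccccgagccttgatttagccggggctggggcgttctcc
Zim1 (chr7:6696433-6696682, - strand): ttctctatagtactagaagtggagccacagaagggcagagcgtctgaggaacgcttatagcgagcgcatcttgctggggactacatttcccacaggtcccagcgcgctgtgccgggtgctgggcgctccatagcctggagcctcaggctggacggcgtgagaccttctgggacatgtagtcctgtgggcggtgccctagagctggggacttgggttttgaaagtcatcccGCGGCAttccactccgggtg

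Genes that act with these members were read from 3 further lists, to be set against the 12.5% of all genes that were higher and the 8.15% that were lower. In the IGF system, 7 of 14 genes in the filter were higher in the libraries numbered 1, among them the binding proteins *Igfbp1* (2147 and 1361 CPM against 21.5 to 143 CPM) and *Igfbp2* (2489 and 2143 CPM against 76.0 to 193 CPM), and the RNA-binding protein *Igf2bp3*. *Igf1*, the growth factor that the liver supplies after birth, was the 1 that was lower, with 370 and 229 CPM against 741 to 1079 CPM. Of 16 imprint maintenance factors 4 were higher: *Uhrf1* (28.4 and 36.3 CPM against 0.517 to 2.47 CPM), *Tet1*, *Dnmt1* (46.7 and 49.7 CPM against 13.2 to 18.1 CPM) and *Trim28*. Of 25 further imprinted genes 2 were higher, *Qpct* and *Pde10a*, and 3 were lower, among them *Dhcr7* and *Tfpi2*. Their median difference was 0.083 on the log2 scale, against 1.04 for the IGF system, 0.40 for the maintenance factors and 0.012 for all genes.

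Markers of liver stage, and some of other cells, moved with the same 2 libraries. Of the 6 fetal liver and proliferation genes 5 were above the range in the libraries numbered 1, with *Afp*, the fetal counterpart of albumin, at 507 and 369 CPM against 2.79 to 6.04 CPM, and the list summed to between 736 and 1000 CPM against 27.7 to 339 CPM. All 6 mature hepatocyte genes were below the range, with sums of 4810 and 4479 CPM against 10407 to 14998 CPM. All 6 fibroblast genes were above it, with sums of 1129 and 713 CPM against 99.5 to 284 CPM, and so were all 4 endothelial genes, with sums of 273 and 305 CPM against 165 to 229 CPM. Erythroid genes summed to 4501 and 1623 CPM against 256 to 2247 CPM, with 1 of 8 genes above the range. Stellate cell genes summed to 246 and 193 CPM against 103 to 121 CPM, with 2 of 4 genes above it. Of 5 leukocyte genes 2 were above the range, and of 4 cholangiocyte genes 2. Of the 6 hepatocyte genes 1 was above and 1 below. Of 4 skeletal muscle genes 1 was above, of 4 neuronal genes 1 was below, and of 4 keratinocyte genes 0 were apart. The part of these cell types and of age in the imprinted genes was not tested, and in bulk tissue fewer cells of a type and less RNA per cell cannot be told apart.

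Between the genotypes, no imprinted gene passed the threshold in liver. With edgeR's quasi-likelihood test, 6 of 16080 genes had an adjusted p under 0.05 (Benjamini-Hochberg over all genes), 0.0373% of those tested, while 502 had an unadjusted p under 0.05 and DESeq2 called 80 of 18811 (0.425%). With the replicate block edgeR called 8 (0.0498%). Of the 34 members tested, 0 were called by either tool or with the block, 2 had an unadjusted p under 0.05 (*Meg3* and *Peg13*), and the median log2 fold change was -0.007 against 0.012 over all genes. No gene of the 3 further lists was called. Of the marker genes, only 2 of 8 erythroid genes lay apart between the genotypes, above WT in every RepB-/- liver. The erythroid list summed to 4501, 2247 and 1390 CPM in RepB-/- and to 1623, 309 and 256 CPM in WT, so the sums overlapped. The part of this in the imprinted genes was not tested. The spread between livers of the same genotype was wide, with a biological coefficient of variation of 51.2% (33.7% with the replicate number as a block), and in simulated data with this spread 1.61% of genes changed 4-fold were recovered (52.4% with the block). Changes of this size were mostly not detectable without the block, and the standard errors of *H19* and *Igf2* were 3.2 and 3.0 on the log2 scale.

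The maternally expressed non-coding RNAs of the *Dlk1*-*Meg3* cluster had the lowest log2 fold changes of the 34 members in liver. *Meg3* had 5.35, 0.834 and 1.28 CPM in the RepB-/- livers and 14.4, 15.8 and 8.09 CPM in the WT livers, so that every RepB-/- value lay below every WT value. Its log2 fold change was -2.35 ± 0.74 (SE, n = 3 and 3), with an adjusted p of 1.00 by edgeR. With the replicate block it was -2.73 ± 0.57 with an adjusted p of 0.427 by edgeR. *Rian*, a non-coding host of small nucleolar RNAs and microRNAs, had 5.59, 0.496 and 0.992 CPM against 10.6, 9.45 and 5.62 CPM, a pair of groups that barely separate, with a log2 fold change of -1.85 ± 0.88. *Mirg*, a host of microRNAs, had 0.415, 0 and 0.233 CPM against 1.09, 0.904 and 0.528 CPM, with a log2 fold change of -1.95 ± 1.11. It reached the filter on low counts through the 3 WT libraries, with 1 RepB-/- library at the minimum.

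**Figure D2:**
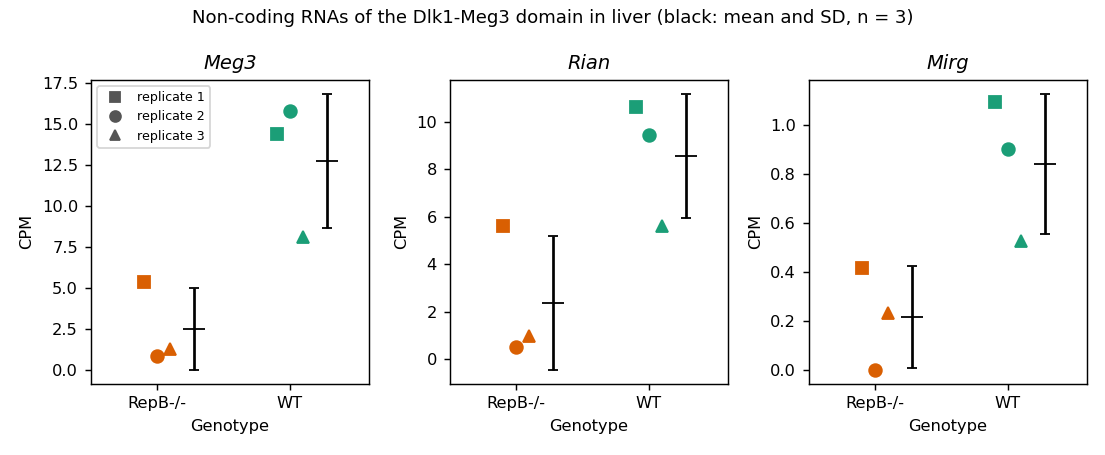
CPM of *Meg3*, *Rian* and *Mirg* in each liver library by genotype (squares, circles and triangles are replicates 1, 2 and 3; black bars are the mean and SD of 3 libraries). Every RepB-/- point lies below every WT point in all 3 panels, and the gap is narrowest for *Rian*, from 5.59 to 5.62 CPM.

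The 3 RNAs follow each other on the plus strand of chromosome 12 (GRCm38, chr12:109541001-109571726 for *Meg3*, chr12:109603940-109661716 for *Rian* and chr12:109729764-109749460 for *Mirg*) and are often described as parts of a long shared transcript, so they are not independent observations. When RepB-/- replicate 2 was dropped for its counts on the Y chromosome, the log2 fold changes were -1.94, -1.38 and -1.36, and without both libraries numbered 1 they were -3.50, -3.36 and -2.72. None of these passed the threshold. Unlike the genes called apart, the 3 RNAs overlapped between the libraries numbered 1 and the others, although their log2 differences were 1.33, 1.73 and 1.33. Within RepB-/-, replicate 1 was 5.05, 7.51 and 3.55 times the mean of replicates 2 and 3. Within WT these ratios were 1.20, 1.41 and 1.53. Some of the microRNAs that the 3 hosts encode are shown with the seed in capitals, chosen as 1 pair from each of *Meg3* and *Rian* and, from *Mirg*, the 2 that share a seed, the only shared seed among the 43.
miR-770-5p (in Meg3, chr12:109563710-109563731, + strand): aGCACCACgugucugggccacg
miR-770-3p (in Meg3, chr12:109563744-109563765, + strand): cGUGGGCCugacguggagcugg
miR-370-5p (in Rian, chr12:109618270-109618289, + strand): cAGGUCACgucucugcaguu
miR-370-3p (in Rian, chr12:109618305-109618326, + strand): gCCUGCUGggguggaaccuggu
miR-453 (in Mirg, chr12:109735669-109735692, + strand): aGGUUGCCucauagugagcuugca
miR-496a-5p (in Mirg, chr12:109739132-109739152, + strand): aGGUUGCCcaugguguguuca

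Without overlap between the genotypes in CPM there were, besides these 3 RNAs, *Copg2* below WT and *Peg13* above it. This makes 4 of 34 members below (11.8%) and 1 above (2.94%), where all genes gave 4.66% and 3.38%. Of the members below, *Mirg* reached the filter through the WT libraries, where it is high. These counts depend on the scaling: in the deposited TPM *Rian* and *Peg13* overlapped between the genotypes, while *Snrpn* lay below WT without overlap. *Peg13*, a paternally expressed non-coding RNA inside *Trappc9*, had 8.65, 5.22 and 11.4 CPM in RepB-/- and 4.77, 4.88 and 3.80 CPM in WT, a log2 fold change of 0.91 ± 0.35 with an adjusted p of 1.00 by edgeR. *Copg2*, a subunit of the coat of Golgi vesicles, had 22, 24.2 and 23.8 CPM against 26.5, 27.0 and 25.4 CPM, a log2 fold change of -0.17 ± 0.16. The other 29 members overlapped in CPM.

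In MEFs, imprinted genes changed with the genotype about as often as other genes. By edgeR's quasi-likelihood test 5202 of 13306 genes passed an adjusted p of 0.05, which is 39.1%, and 12 of the 26 members tested did, which is 46.2%. Of these, 5 were higher in RepB-/- (19.2%, against 19.4% of all genes) and 7 were lower (26.9%, against 19.7% of all genes). The median log2 fold change of the members was -0.026 and that of all genes 0.0003. Genes without overlap between the genotypes in CPM were 7 above (26.9%) and 9 below WT (34.6%) among the 26, against 26.4% and 25.8% of all genes. Those below include *Phlda2*, *Cdkn1c*, *Mkrn3* and *Slc38a4*, which reached the filter only through the WT libraries, where they are high. The share below WT thus rests in part on the filter. So the list as a whole gave no result of its own in MEFs, and what follows describes its members one by one.

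**Figure D3:**
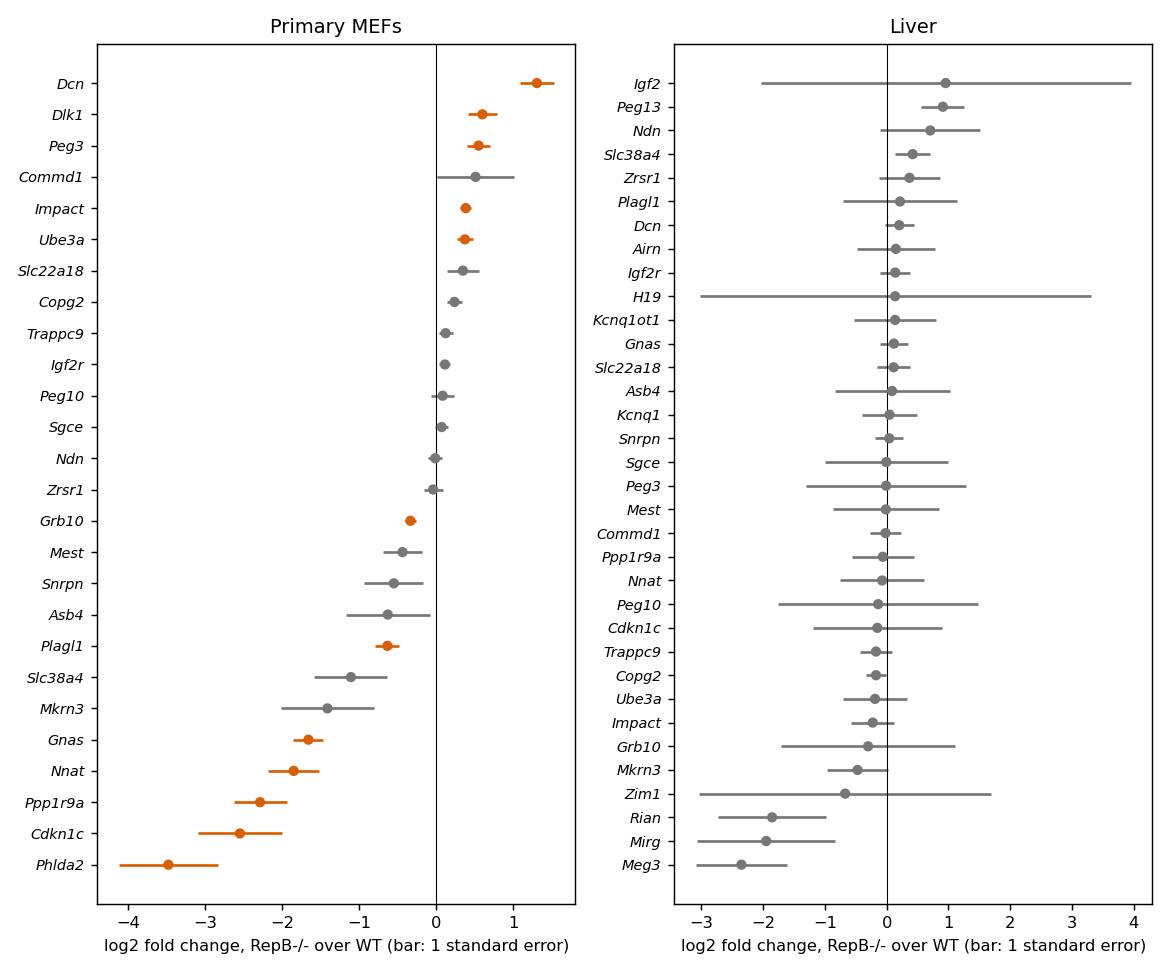
Log2 fold change of RepB-/- over WT with 1 standard error for the 26 members tested in MEFs (left) and the 34 tested in liver (right), by edgeR; orange marks an adjusted p under 0.05. In MEFs the 12 orange genes range from -3.48 for *Phlda2* to 1.31 for *Dcn*, and in liver no gene is orange and the bars are wider.

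*Phlda2* and *Cdkn1c*, both maternally expressed, had the lowest log2 fold changes of the 26 members. *Phlda2*, which limits placental growth, had 0.051, 0.155 and 0.152 CPM in RepB-/- and 2.33, 0.618 and 1.37 CPM in WT, in total 7 against 62 counts, with a log2 fold change of -3.48 ± 0.64 and an adjusted p of 0.00091 by edgeR. *Cdkn1c*, its neighbour in the *Kcnq1* cluster, had 0.255, 0.413 and 0.051 CPM against 2.0, 1.05 and 1.31 CPM, in total 14 against 64 counts, with a log2 fold change of -2.55 ± 0.55. Both genes were low throughout, and both reached the filter through the WT libraries alone. The same held for *Mkrn3* and *Slc38a4*, which did not pass the threshold. Without these 4, 10 of 22 members were called (45.5%), 5 in each direction. *Grb10* changed little but at a high level, with 168, 162 and 144 CPM against 197, 197 and 202 CPM and a log2 fold change of -0.33 ± 0.07. *Igf2r*, in contrast, had a log2 fold change of 0.11 ± 0.07 and an adjusted p of 0.226 by edgeR.

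*Gnas*, which encodes the stimulatory G protein alpha subunit, had 8.56, 9.92 and 8.56 CPM in RepB-/- and 40.0, 20.8 and 25.3 CPM in WT. Its log2 fold change of -1.66 ± 0.20 had the lowest adjusted p of the members, 3.5e-05 by edgeR. The locus carries several promoters of different imprinting, and *Nespas* overlaps it on the opposite strand, so that its counts cannot be assigned to a single transcript. Whether the transcript of the G protein subunit itself was lower cannot be told from them. *Ppp1r9a*, encoding neurabin, had 0.612, 0.620 and 0.608 CPM against 3.69, 2.16 and 3.27 CPM, a log2 fold change of -2.29 ± 0.34. *Nnat*, the membrane protein neuronatin, had 1.07, 1.19 and 1.52 CPM against 6.98, 3.52 and 3.39 CPM, a log2 fold change of -1.85 ± 0.33. *Plagl1* had 7.75, 7.75 and 6.23 CPM against 12.9, 9.83 and 11.1 CPM, a log2 fold change of -0.63 ± 0.16. In each of the 7 genes that fell except *Grb10*, WT replicate 1 had the highest value, and all 7 stayed past the threshold when it was left out.

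Among the genes that rose, *Dcn* rose most. This proteoglycan of the fibroblast matrix had 161, 139 and 72.0 CPM in RepB-/- and 48.4, 41.8 and 59.5 CPM in WT, a log2 fold change of 1.31 ± 0.22 with an adjusted p of 0.00044 by edgeR. *Impact*, a regulator of translation, had 159, 170 and 174 CPM against 122, 127 and 137 CPM, a log2 fold change of 0.38 ± 0.07. *Ube3a*, the ubiquitin ligase of Angelman syndrome, which is imprinted in neurons, had 32.5, 38.4 and 38.3 CPM against 26.6, 26.9 and 30.7 CPM, a log2 fold change of 0.37 ± 0.10. Paternally expressed *Peg3* had 16.0, 14.5 and 11.4 CPM against 8.42, 9.52 and 10.5 CPM, and *Dlk1* had 11.7, 9.56 and 7.09 CPM against 6.17, 5.50 and 7.01 CPM. Their log2 fold changes were 0.55 ± 0.15 and 0.60 ± 0.19, with adjusted p of 0.0104 and 0.024 by edgeR. In both genes the lowest RepB-/- and the highest WT values nearly met, and in the deposited FPKM, explained below, *Dlk1* and *Ube3a* overlapped between the genotypes. Without RepB-/- replicate 1 neither passed the threshold, with adjusted p of 0.055 for *Peg3* and 0.127 for *Dlk1* by edgeR, which leaves 3 members higher in place of 5. *Dlk1* also missed it without RepB-/- replicate 2 (adjusted p of 0.066 by edgeR) and without WT replicate 2 (0.079).

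**Figure D4:**
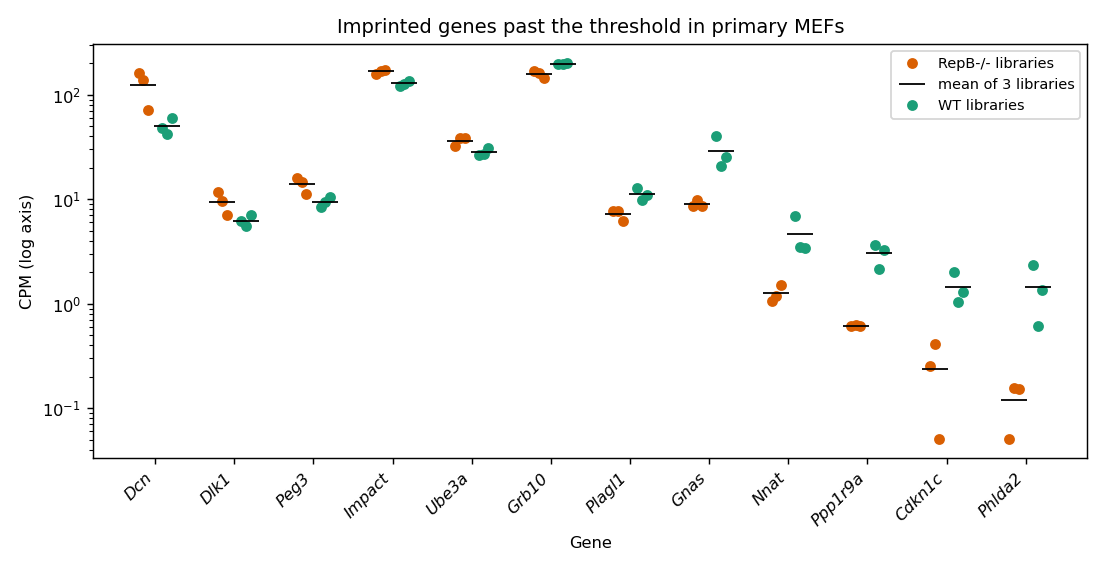
CPM (log axis) in each MEF library for the 12 imprinted genes with an adjusted p under 0.05 by edgeR; orange points are RepB-/-, green points WT, and black bars the mean of 3 libraries. In CPM the libraries of the genotypes do not overlap for any of the 12, and the gap is smallest for *Dlk1*, from 7.01 to 7.09 CPM. In the deposited FPKM, explained below, *Dlk1* and *Ube3a* overlap between the genotypes.

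By parental copy, 3 of 13 paternally expressed members tested were higher and 2 lower, and 2 of 13 maternally expressed members were higher and 5 lower, where 19.4% of all genes were higher and 19.7% lower. The 14 members that did not pass had log2 fold changes from -1.41 (*Mkrn3*) to 0.51 (*Commd1*) and adjusted p from 0.064 to 0.922 by edgeR. Several of them were well measured, such as *Ndn* at 83.3 to 93.9 CPM in RepB-/- and 79.5 to 102 CPM in WT, with a log2 fold change of -0.01 ± 0.09, *Sgce* at 0.07 ± 0.09 and *Zrsr1* at -0.04 ± 0.12. *Mest* was at -0.44 ± 0.26, *Snrpn* at -0.55 ± 0.38, *Peg10* at 0.08 ± 0.15 and *Trappc9* at 0.12 ± 0.09. *Copg2* and *Slc22a18* were above WT without overlap in CPM but not past the threshold, which *Copg2* passed without WT replicate 2 (adjusted p of 0.013 by edgeR). In the deposited FPKM, explained below, both genes overlapped between the genotypes. In total 7 members did not pass the filter. Of these, *Rasgrf1*, a nucleotide exchange factor for Ras, had 0, 1 and 0 counts in RepB-/- and 11, 7 and 5 counts in WT, 32.0 times as many per unit of depth in WT with an exact 95% interval from 5.19 to 1317 that covers counting error only. *Igf2* had 27 counts over the RepB-/- libraries and 12 over the WT libraries, *Magel2* had none, and *Zim1*, *Usp29*, *Kcnq1* and *Nap1l5* were at or below 1.11 CPM.

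Per length, as FPKM (fragments scaled to gene length and to library size), *Igf2r*, *Impact*, *Ndn*, *Grb10* and *Dcn* were the highest members in MEFs, at means of 32.9, 28.7, 24.3, 19.7 and 14.6 FPKM over the 6 libraries. *Gnas* stood at 1.70 FPKM and *Commd1* at 0.111 FPKM there, against 264 and 14.7 TPM in liver. The tables differ in build, annotation and unit, so no test was made across them. *H19*, *Airn*, *Meg3*, *Rian*, *Mirg*, *Kcnq1ot1* and *Peg13* were not analysed in MEFs, so the non-coding RNAs of the list are described in liver alone.

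The lists of partner genes also split in MEFs, where 39.1% of all genes were called, 19.4% higher and 19.7% lower. Of 16 imprint maintenance factors tested 4 were higher, *Uhrf1* (log2 fold change 0.82 ± 0.10), *Dnmt1* (0.62 ± 0.08), *Smchd1* (0.48 ± 0.09) and *Trim28* (0.30 ± 0.07), and 4 were lower, *Tet1* (-1.16 ± 0.39), *Zfp57* (-1.14 ± 0.17), *Tet3* (-1.05 ± 0.14) and *Dnmt3a* (-0.50 ± 0.13). *Zfp57* had 12, 11.6 and 13.2 CPM in RepB-/- and 37.3, 21.8 and 22.8 CPM in WT. Of 14 genes of the IGF system 6 were higher and 3 lower, with *Igfbp3* and *Igfbp4* both at 1.28 ± 0.10 and *Igfbp5* at 1.24 ± 0.27 on the one side and *Igf2bp1*, which binds *Igf2* mRNA, at -1.16 ± 0.24 on the other. Of 29 further imprinted genes 4 were higher and 4 lower, from *Dio3*, the thyroid hormone deiodinase of the *Dlk1*-*Meg3* cluster (1.47 ± 0.14), to *Zdbf2* (-2.05 ± 0.51). The median log2 fold changes of the 3 lists were 0.053, 0.283 and 0.004, beside 0.0003 for all genes.

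Other genes moved with the genotype in MEFs too. The fibroblast list summed to between 18932 and 21012 CPM in RepB-/- and between 12776 and 16908 CPM in WT, with 3 of 6 genes above and 1 below WT. *Mki67*, a marker of dividing cells, had 42.4 to 44.3 CPM against 14.9 to 25.7 CPM. The endothelial list summed to between 11.1 and 12.7 CPM against 24.1 and 28.4 CPM, with 3 of 4 genes below WT, and the skeletal muscle list to between 58.1 and 65.0 CPM against 122 and 191 CPM, with 1 of 4 genes above and 1 below. The keratinocyte list, which bears on lines from tail, summed to between 5.22 and 10.4 CPM in RepB-/- and between 3.05 and 4.51 CPM in WT, with 1 of 4 genes above and 1 below, and the neuronal list to between 4.26 and 5.11 CPM against 6.0 and 6.74 CPM, with 2 of 4 genes below. The part of these differences in the imprinted genes was not tested.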

How the data were processed

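RNA-seq was read in 12 libraries, 3 RepB-/- and 3 WT of MEFs and 3 and 3 of liver; libraries of brain, 6 in all, were left out. The authors deposited raw counts per gene and library. They also deposited FPKM for MEFs (GRCm39 coordinates) and TPM for liver (GRCm38), which were used only for levels between genes. A further 6 per-library columns were not used. Per the study's methods, stranded libraries went through Cutadapt and then Hisat2, while the submitters' processing notes name Trim Galore 0.4.1, STAR 2.7.0 and HTSeq 0.12.4. The counter's strand setting is not given in the sources used here, so counts of members that overlap another gene are uncertain: 8 members have an exon overlap on the same strand and 16 on the other, in the GENCODE annotation of GRCm38.

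Each tissue was fitted alone with edgeR 4.0.16 in R 4.3.3 (TMM, filterByExpr, quasi-likelihood test, adjusted p 0.05 over all genes), and DESeq2 1.42.0 was an alternative. Fits were tested on simulated data. In liver, deviations from the genotype mean correlated between libraries of the same number (0.71, 0.36 and 0.37). With 3 libraries per genotype, a replicate 1 far from the others in both genotypes also raises the values of replicates 2 and 3. Libraries of different numbers were not compared, so a pairing of replicates 2 and 3 is not shown. The livers were also fitted with the replicate number as a block, where the pairing comes from the data and not from the labels. The members and lists were chosen with earlier results of these data known. All members were accounted for: values per library are given for those past the threshold or apart in liver, and *Meg3*, *Rian*, *Mirg*, *Peg13*, *Copg2* and *Rasgrf1* were added after their values were seen. Of the other lists, up to 6 called genes with the largest change were eligible. Of the further imprinted genes, 1 is not reported here by name. Promoter windows left out *Impact*. Intervals were exact binomial, computed with scipy 1.17.1, at 95%. Figures used matplotlib 3.10.9.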

Additional observations from a re-analysis of the deposited data

Results flagged for a closer look

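In CPM, *Copg2* was above WT in every RepB-/- library of MEFs, with a log2 fold change of 0.24, and below WT in every RepB-/- library of liver, with a log2 fold change of -0.17. Neither passed the threshold, although in MEFs *Copg2* did so without WT replicate 2 (adjusted p of 0.013 by edgeR) and with no filter on low counts (0.0234). The difference between the tissues was not tested.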

How the results depend on the processing

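In liver, 0 members and 0 genes of the other lists were called under every alternative run, the replicate block included, although the count over all genes moved from 6 to 80 with DESeq2, to 3 with TMM over autosomal genes, to 8 with the block, to 9 with a term for replicate 1 and to 0 with no filter. A block without RepB-/- replicate 2, chosen after seeing the data, also called 0. Leaving out each liver in turn gave 0 to 4 genes, which limits what these 6 libraries can show. In MEFs, where numbers pair no libraries (correlations from -0.042 to -0.0035), the block moved the calls from 5202 to 5006, and DESeq2 gave 5128. The members higher in MEFs ranged from 3 to 5 without single libraries; *Dlk1* had an adjusted p from edgeR of 0.066 without RepB-/- replicate 2 and 0.079 without WT replicate 2, where *Copg2* was called instead (0.013). Of the members not called in MEFs, *Copg2* and *Rasgrf1* passed with no filter, *Rasgrf1* with DESeq2, *Snrpn* without WT replicate 1 and *Nap1l5* without WT replicate 3. The count of members high in the liver libraries numbered 1 was 14 to 15 without single libraries, when *Dlk1* and *Usp29* pass the filter, and 15 with no filter. With no minimum difference, 3 members were lower there in place of 1, 5 further imprinted genes were higher in place of 2 and 6 lower in place of 3, 9 maintenance factors were higher in place of 4 and 2 lower in place of 0, and 2 genes of the IGF system were lower in place of 1. With no filter 7 further imprinted genes were higher, and without single libraries 3 to 6. The difference of *Zim1* was 6.11, and 7.64 with a prior count of 0.5. No fold change of a member called in MEFs, and no difference between the livers numbered 1 and the others of a member called apart, changed its sign under the alternatives run. Values that were not called did: between the genotypes in liver, the log2 fold changes of *H19* and *Igf2* were -7.37 and -7.73 without RepB-/- replicate 1 and 10.91 and 9.13 without WT replicate 1.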
